A study of Homo sapiens with 18 samples.

Results

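The genes described here encode the lysosome and the vacuolar ATPase (V-ATPase), the proton pump that acidifies it. They were chosen by symbol: 46 genes of the 26475 in the deposited count table, 31 for lysosomal proteins and their regulators and 15 for subunits of the pump. The RNA came from Mel92.1 and MP41, 2 human lines of uveal melanoma (the melanoma of the eye), grown without inhibitor (DMSO, the vehicle) or for 48 hours with 1 µM of UNC0642 or A366. Both compounds inhibit EHMT2 (G9a), a histone H3 lysine 9 methyltransferase, and by the study's account can also inhibit EHMT1. The study asked how EHMT2 in tumor cells affects their killing by natural killer cells. Each of the 6 groups held 3 libraries that the series text calls biological replicates, 18 in all, and each line is a single established line. Levels are given as CPM, counts scaled to the size of the library after trimmed mean of M values (TMM) normalization. A gene is said to have risen or fallen when the quasi-likelihood test of edgeR gave it an adjusted p under 0.05 over all genes tested.

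The libraries labelled A366 replicates 2 and 3 went against their labels in both lines. Of 27 genes above 20 CPM in Mel92.1 and at or under 0.05 CPM in MP41 with DMSO, the 2 labelled Mel92.1 held 0.0384% and 0.0233% of the Mel92.1 level, and they held 110% and 112% of the MP41 level of 33 genes chosen in the same way for MP41. The 2 labelled MP41 held 109% and 96.5% of the Mel92.1 level and 0.0677% and 0.0557% of the MP41 level. These 4 libraries are therefore placed here in the other line, as the study's own gene table lists them. Results of the 46 genes with A366 are also given by the labels and without the 4 libraries. Every replicate number below is that of the placed group.

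Lysosomes break down proteins, glycans and lipids with acid hydrolases, which are made in the endoplasmic reticulum and delivered through the Golgi. The V-ATPase keeps their lumen acid: its membrane sector V0 carries protons, its cytosolic sector V1 hydrolyses ATP, and accessory proteins help the sectors assemble. The transcription factors TFEB and TFE3 bind a motif called CLEAR in front of many of these genes and are held in the cytoplasm by mTORC1 when nutrients are plentiful. Melanosomes, the pigment organelles of melanocytes, are related to lysosomes and share several of these proteins, among them CD63 and GPNMB.

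A RefSeq promoter (GRCh38.p14, 250 bases before to 50 after the start) was found for 32 of the 46 genes. The core of the CLEAR motif, TCACGTGA, which reads the same on both strands and contains the E box CACGTG, stood in 7 of these 32 (21.9%), against 1.04% of 27305 promoters. Those 27305 include genes not expressed here. Of the genes tested with A366 in MP41 that had a promoter, 224 held the core and 10655 did not. The E box, within a full core or not, stood in 12 of 32 (37.5%), against 7.43% of all. Neither was in the promoter window of TFEB or TFE3. Many genes of this kind are known to carry the motif, so its share is a property of the list and not a result of these data. All 7 promoters with the core are shown, their cores in capitals:

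LAMP1, chr13:113297199-113297228, plus strand: gacccgcgggaTCACGTGAcgcccgggcgc
MCOLN1, chr19:7522571-7522600, plus strand: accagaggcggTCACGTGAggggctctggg
CLN3, chr16:28492058-28492087, minus strand: cgcgggtgctgTCACGTGAtccgacaaacg
CTSA, chr20:45891298-45891327, plus strand: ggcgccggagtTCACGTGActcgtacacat
GAA, chr17:80101493-80101522, plus strand: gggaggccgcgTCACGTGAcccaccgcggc
ATP6V0D1, chr16:67481199-67481228, minus strand: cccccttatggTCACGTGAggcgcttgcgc
ATP6V1G1, chr9:114587699-114587728, plus strand: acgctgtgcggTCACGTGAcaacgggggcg

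LAMP1 held 6 E boxes in its window, of which 2 were full cores, and GAA and MCOLN1 held 2 cores each. The genes with the largest rises under A366 in MP41, CTSF and ATP6V0B, held 2 E boxes each but no full core. Of the next 3 in order, ATP6V1F and CTSZ held neither motif, and GAA held the core as shown. Those of CTSF and ATP6V0B are shown with the E box in capitals:

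CTSF, chr11:66568712-66568741, minus strand: acatataacaagCACGTGatagaggtcagt
ATP6V0B, chr1:43974891-43974920, plus strand: ccggcgtggggtCACGTGgtaccggcgcat

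The libraries held 23601160 to 62941453 counts, of which the 46 genes took 0.890% to 1.43%. Genes of ribosomal RNA took 3.31% to 32.8%, most in Mel92.1 UNC0642 replicate 1, which was also the shallowest. All 6 melanocytic markers checked (MLANA, PMEL, TYR, DCT, SOX10 and PAX3) were above 1 CPM in every library. None of 4 blood markers reached 1 CPM, and among 3 endothelial, 3 fibroblast and 4 epithelial markers the highest level was 22.2 CPM, of COL1A1. All 46 genes passed the filter on low counts in every fit.

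Without inhibitor, the lines differed in most of these genes. With DMSO, 22 of the 46 were higher in Mel92.1, 11 were higher in MP41 and 13 did not pass the test. Of all genes, 69.4% passed, 34.5% higher in Mel92.1 and 34.8% higher in MP41, so a share of 71.7% among the 46 lay near the background. The largest difference was that of GAA, the acid glucosidase that degrades glycogen, at 74.9, 81.5 and 82.9 CPM in Mel92.1 and 23.6, 21.1 and 25.1 CPM in MP41 (log2 difference 1.78 ± 0.09 SE, adjusted p 1.41e-11). MANBA, the beta-mannosidase of glycan breakdown, was the reverse, at 10.7, 10.6 and 9.84 CPM in Mel92.1 and 31.1, 33.7 and 32.8 CPM in MP41 (log2 difference -1.65 ± 0.12, adjusted p 1.27e-09). In both genes the 3 libraries of a line stood together and the lines did not overlap.

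The line difference ran in both directions among the proteases and the V1 subunits. Of the 9 proteases (8 cathepsins and the peptidase TPP1), CTSB, CTSH and CTSF were higher in Mel92.1 by 0.50, 1.53 and 1.56 on the log2 scale, whereas CTSL, TPP1, CTSZ and CTSA were lower, with log2 differences from -1.09 to -0.55. Of the 8 V1 subunits, ATP6V1H, ATP6V1B2 and ATP6V1A were higher in Mel92.1 (1.36, 1.11 and 0.35) and ATP6V1C1, ATP6V1D and ATP6V1E1 were lower (-1.59, -1.15 and -1.09). Of the 5 V0 subunits, ATP6V0B, ATP6V0C and ATP6V0D1 were higher in Mel92.1 and none was lower. LAMP1, the abundant glycoprotein of the lysosomal membrane, was higher in Mel92.1 by 0.81 ± 0.05, and the related LAMP2 was lower (-0.57 ± 0.07).

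Among the regulators, TFEB was low in both lines, at 4.73, 5.75 and 5.02 CPM in Mel92.1 and 1.97, 2.46 and 2.06 CPM in MP41 with DMSO. The lines did not overlap, and the log2 difference was 1.25 ± 0.24 (adjusted p 1.40e-04). TFE3 was at 33.2, 32.7 and 35.2 CPM in Mel92.1 and 32.4, 29.5 and 31.9 CPM in MP41, and its difference of 0.11 did not pass the test (95% interval -0.08 to 0.30). Per kilobase of the longest annotated transcript, the mean levels with DMSO ran in Mel92.1 from 1.25 CPM per kilobase for CTSK, the bone-type cathepsin, to 1279 for CD63, a tetraspanin of lysosomes and melanosomes. In MP41 they ran from 0.834 for TFEB to 644 for CD63.

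**Figure D1:**
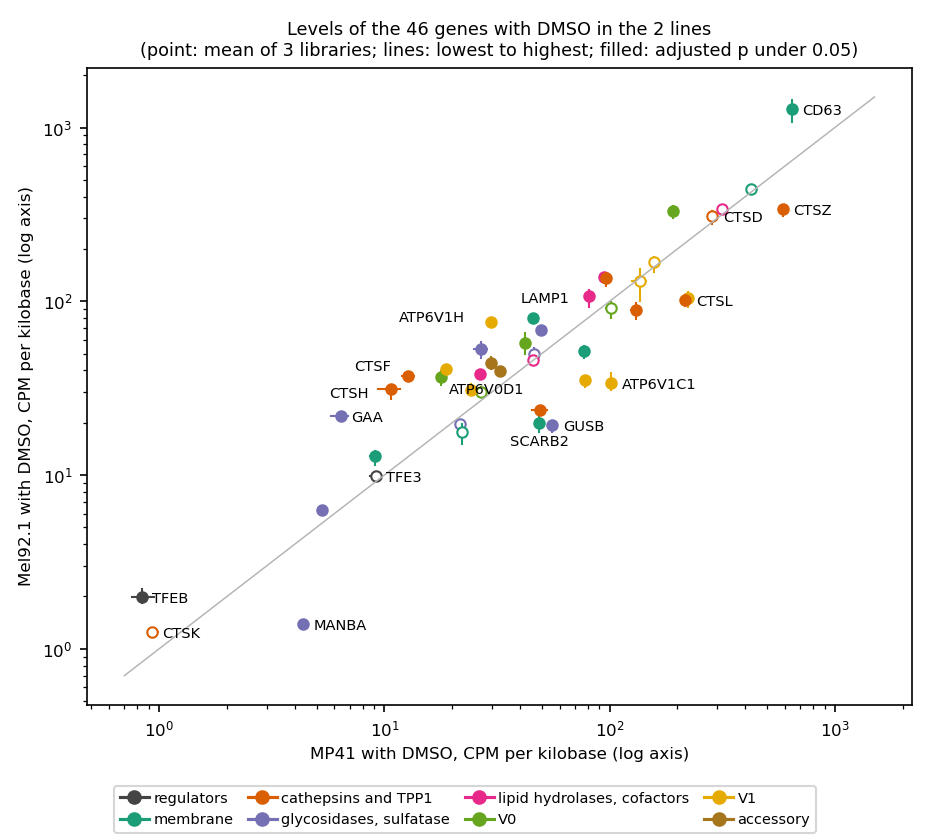
Mean level of each of the 46 genes with DMSO in MP41 (horizontal) and Mel92.1 (vertical), in CPM per kilobase on log axes, with lines from the lowest to the highest of 3 libraries. GAA, CTSF and CTSH lie above the line of equal levels, MANBA, GUSB and ATP6V1C1 lie below it, and filled points are the 33 genes that passed the test.

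In Mel92.1, UNC0642 raised 1 of the 46 genes, CTSL, the cysteine protease cathepsin L. CTSL was at 205, 224 and 238 CPM with DMSO, 396, 349 and 336 CPM with UNC0642 and 274, 266 and 299.8 CPM with A366. All libraries with either inhibitor lay above all with DMSO, and all with UNC0642 above all with A366. The rise with UNC0642 was 0.69 ± 0.08 (SE) on the log2 scale, or 1.61-fold (adjusted p 0.00442). Of all genes, 0.688% passed in this comparison. Leaving out any library of the line kept CTSL as the only member that passed, with changes from 0.62 to 0.74. When the model was corrected for the GC content and length of each transcript, its change was 0.87, where the median over all genes was 0.13, and its adjusted p was 0.056. By the labels, where the spread between replicates of A366 was wide, the same change of 0.69 had an adjusted p of 1.

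No other member passed with UNC0642 in Mel92.1. The smallest p after CTSL belonged to CTSZ, the carboxypeptidase cathepsin Z, at 465, 527 and 534 CPM with DMSO and 640.5, 632 and 601 CPM with UNC0642. The groups did not overlap, but the change of 0.29 ± 0.08 did not pass the adjustment (adjusted p 0.182). TFE3 came next, at 27.9, 28.5 and 24.2 CPM with UNC0642, all under the 3 DMSO libraries (log2 change -0.33 ± 0.09, adjusted p 0.235). Before adjustment, 8 of the 46 had a p under 0.05, a count with no share of all genes beside it and not read as a result. The median change was 0.06, against -0.02 over all genes, and for 42 of the 46 the 95% interval lay within 1.5-fold either way. DESeq2 called CTSL and CTSZ higher and TFE3 lower, where it called 2.64% of all genes, and limma voom with quality weights called CTSL, CTSZ and TPP1 higher, where it called 2.84%.

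Other features of the Mel92.1 libraries moved with UNC0642. The 6 melanocytic markers summed to 11630 to 12610 CPM with UNC0642 and 9747 to 10680 CPM with DMSO, most of it PMEL. MLANA, PMEL, TYR and DCT were higher without overlap, DCT at 4.66 to 10.6 CPM against 1.36 to 2.91 CPM. SOX10 went the other way, at 554.5 to 592.6 CPM with UNC0642 and 594.7 to 630.0 CPM with DMSO, and PAX3 overlapped. The 3 fibroblast markers summed to 8.14 to 15.7 CPM with UNC0642 and 17.0 to 22.3 CPM with DMSO, and the epithelial, endothelial and blood markers overlapped between the groups. Genes of ribosomal RNA took 10.1% to 32.8% of counts with UNC0642 and 6.50% to 12.5% with DMSO. Their part in the rise of CTSL was not tested.

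With A366 in Mel92.1, none of the 46 genes passed the edgeR test, where 0.213% of all genes did. Before adjustment, 3 had a p under 0.05, also given without the share of all genes. CTSL again had the smallest p, with a change of 0.33 ± 0.08 (adjusted p 0.301). ASAH1, the acid ceramidase, was at 809, 787 and 771 CPM with DMSO and 706, 708 and 664 CPM with A366, without overlap (change -0.19 ± 0.05, adjusted p 0.351). TFEB was at 8.13, 7.39 and 8.5 CPM with A366, above its 3 DMSO libraries (0.63 ± 0.23, adjusted p 0.827). The median change of the 46 was 0.00 and that of all genes -0.01, and 43 of the 46 intervals lay within 1.5-fold. DESeq2 called 2, CTSL higher and ASAH1 lower, and 1.18% of all genes. limma voom with quality weights called 14, of which 9 were lower, among them CTSD, LAMP1 and ATP6V0D1, in a fit that called 21.2% of all genes. By the labels 0 members passed and 0% of all genes did. Leaving out the 4 exchanged libraries leaves 1 A366 library in Mel92.1, and the change of CTSL was then 0.29.

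In MP41, UNC0642 moved none of the 46 past the test, by edgeR, DESeq2 or limma voom, where 0.241% of all genes passed in edgeR. Before adjustment 2 had a p under 0.05, given without the share of all genes. CTSZ was at 880.1, 892 and 859.8 CPM with DMSO and 965, 1036 and 965 CPM with UNC0642, so the groups did not overlap (0.17 ± 0.07, adjusted p 0.509). SGSH, the sulfamidase of heparan sulfate breakdown, was at 28.96, 30.4 and 28.8 CPM with DMSO and 31.4, 33.1 and 36.0 CPM with UNC0642, also without overlap (0.19 ± 0.08, adjusted p 0.514). LAMP1 was at 240.4, 240.1 and 239.7 CPM with DMSO and 224, 219 and 228 CPM with UNC0642 (-0.11 ± 0.05, adjusted p 0.603). The median change was -0.03, against 0.00 over all genes, and 45 of the 46 intervals lay within 1.5-fold. CTSL, which rose with the same compound in Mel92.1, was at 472, 476 and 469 CPM with DMSO and 456, 464 and 442 CPM with UNC0642 (-0.06 ± 0.06).

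**Figure D2:**
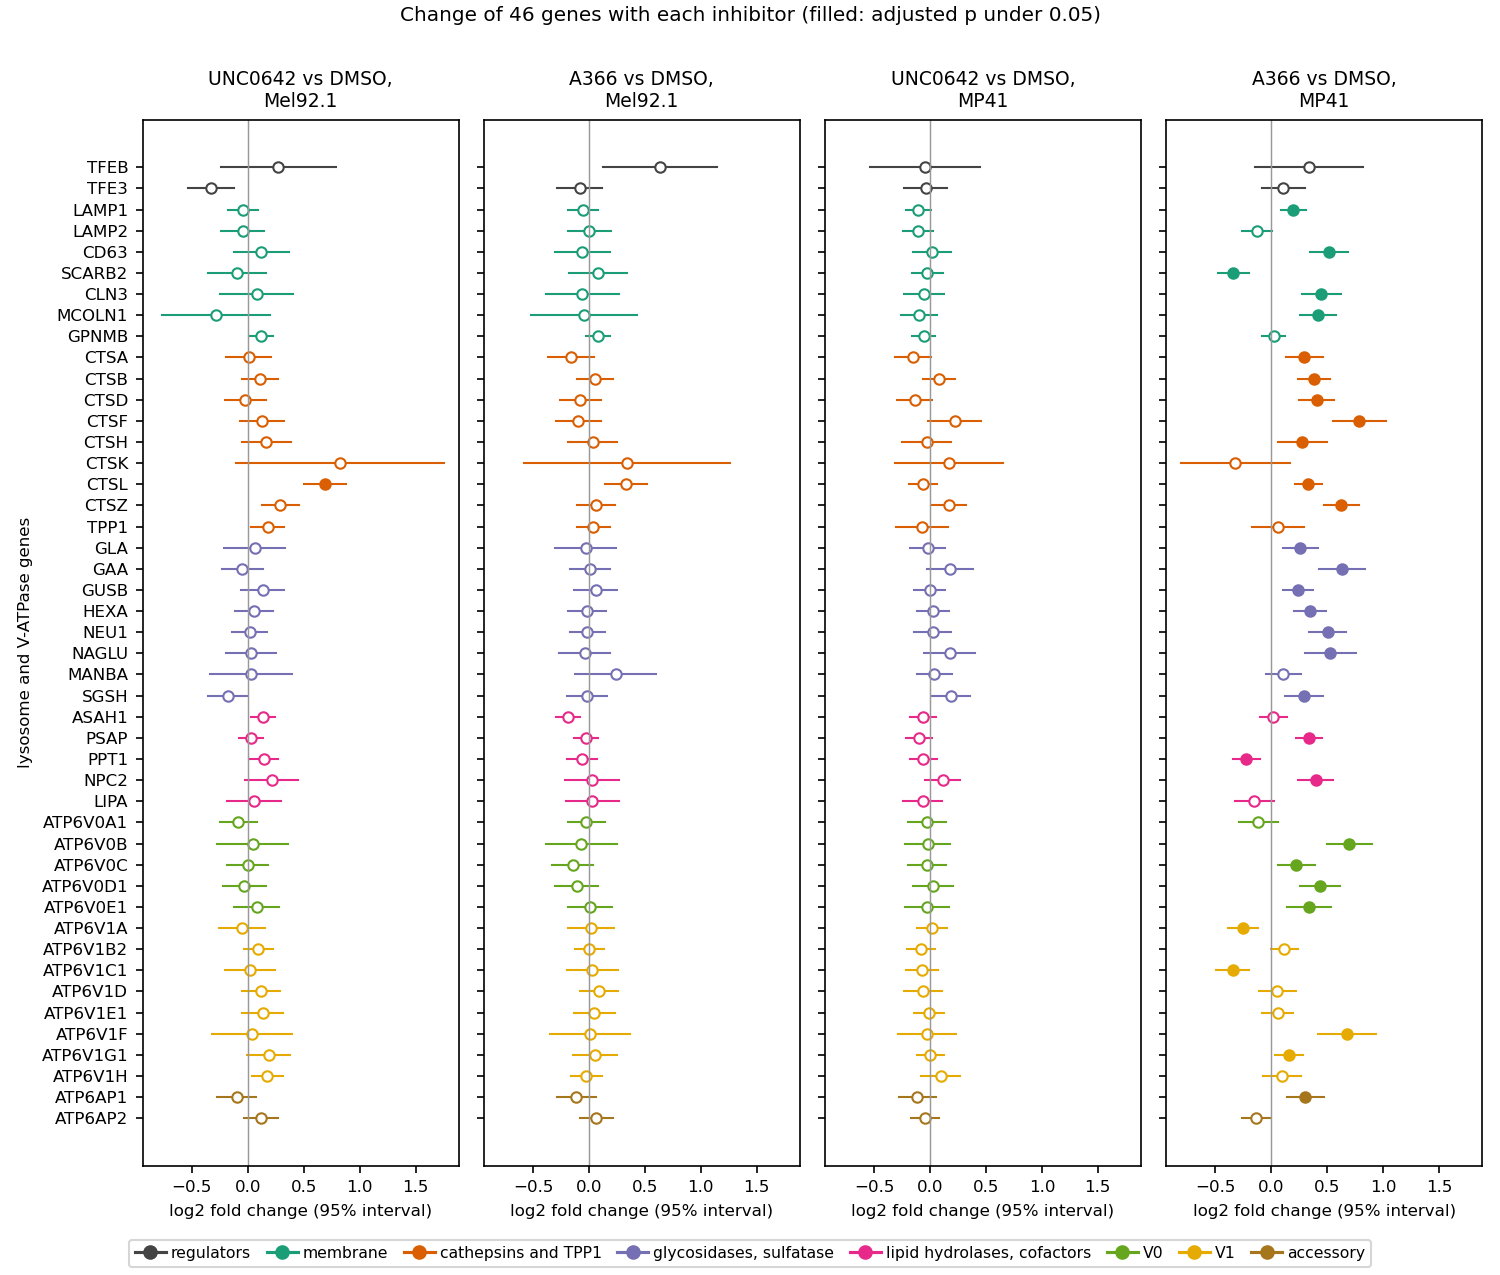
The log2 fold change against DMSO (horizontal, with its 95% interval) of each of the 46 genes (vertical, colored by kind of protein) with each inhibitor in each line. Filled points passed the edgeR test: 1 in the first panel, none in the next 2 and 31 in the last.

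In MP41, A366 moved most of these genes: 27 rose, 4 fell and 15 did not pass the test. This was a broad response, in which 46% of all genes passed, 22.5% higher and 23.5% lower. Of the 46, 67.4% passed, 58.7% higher and 8.70% lower. The changes were modest: the median was 0.27 on the log2 scale, against 0.02 over all genes, and 5 of the 46 changed 1.5-fold or more, against 20.6% of all genes. In bulk RNA, a change in how many cells carry a transcript and a change in its amount per cell cannot be told apart. Summed over the 46, the libraries held 12509 to 13769 CPM with A366 and 11023 to 11084 CPM with DMSO, without overlap.

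**Figure D3:**
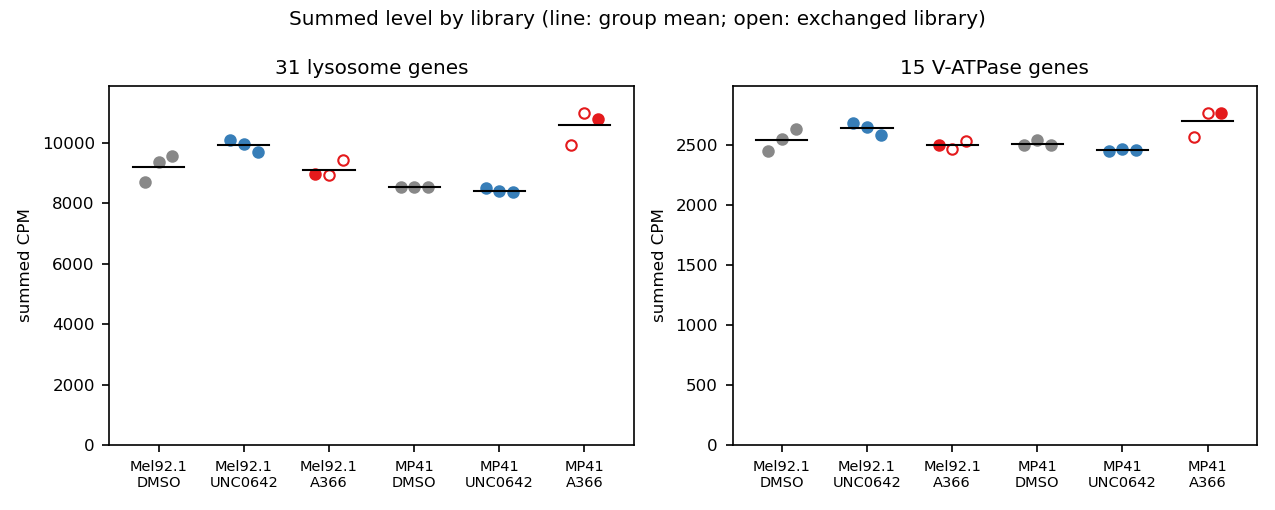
Summed CPM of the 31 lysosome genes (left) and the 15 V-ATPase genes (right) in each of the 18 libraries, by placed group, with the group mean as a line and the exchanged libraries as open points. With A366 in MP41 the lysosome sum lies between 9939 and 11000.0 CPM, above all DMSO and UNC0642 libraries of that line (8364 to 8547 CPM), and the V-ATPase sum lies between 2569.7 and 2769.5 CPM.

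Among the 9 proteases, 7 rose with A366 in MP41, none fell, and TPP1 and CTSK did not pass. CTSF, a cysteine protease, changed most of the 46, at 25.8, 27.5 and 24.3 CPM with DMSO and 45.5, 39.5 and 51.0 CPM with A366 (log2 change 0.79 ± 0.11, adjusted p 4.50e-04). CTSZ rose by 0.63 ± 0.07, to 1391, 1217 and 1527 CPM. CTSD, the aspartic protease of lysosomes, was at 600.5, 615.5 and 606 CPM with DMSO and 815, 728 and 912 CPM with A366 (0.41 ± 0.07, adjusted p 0.00113). CTSL was at 633, 558 and 624 CPM with A366 (0.33 ± 0.06). In all 4 genes every A366 library lay above every DMSO library, and the exchanged replicate 2 was the lowest of the 3.

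Of the 8 enzymes of glycan breakdown, 7 rose and MANBA did not pass. GAA was at 34.4, 34.0 and 41.4 CPM with A366, above its DMSO libraries (0.63 ± 0.09, adjusted p 6.07e-04). NAGLU and SGSH, which act in sequence on heparan sulfate, rose by 0.53 ± 0.10 and 0.29 ± 0.08, and the sialidase NEU1 by 0.50 ± 0.08. HEXA and GUSB, a hexosaminidase subunit and the beta-glucuronidase, rose by 0.35 ± 0.07 and 0.24 ± 0.06. Among the 5 lipid hydrolases and cofactors, PSAP, the precursor of the saposins, and NPC2, the cholesterol carrier, rose by 0.34 ± 0.05 and 0.40 ± 0.07. PPT1, the palmitoyl thioesterase, fell by 0.22 ± 0.06, and ASAH1 and LIPA did not pass.

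Of the 7 membrane proteins, CD63, CLN3, MCOLN1 and LAMP1 rose, SCARB2 fell, and LAMP2 and GPNMB did not pass. LAMP1 was at 282, 276 and 281 CPM with A366, a narrow range above DMSO (0.20 ± 0.05, adjusted p 0.00882). CD63 rose by 0.52 ± 0.08, and MCOLN1, the calcium channel of the lysosome, by 0.42 ± 0.07. SCARB2, which carries glucocerebrosidase to lysosomes, fell by 0.34 ± 0.06. Neither regulator passed: TFEB was at 3.06, 2.05 and 3.23 CPM with A366, overlapping DMSO (0.34 ± 0.22), and TFE3 at 34.2, 34.3 and 34.4 CPM (0.11 ± 0.09).

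In the V0 sector of the pump, 4 of the 5 subunits rose and ATP6V0A1 did not pass. ATP6V0B, a proteolipid of the proton-carrying ring, was at 104, 105 and 99.5 CPM with DMSO and 177, 142 and 190.1 CPM with A366 (0.70 ± 0.09, adjusted p 3.83e-04). ATP6V0D1, which joins the ring to the central stalk, was at 59.8, 62.4 and 58.4 CPM with DMSO and 88.8, 71.6 and 88.5 CPM with A366 (0.44 ± 0.08, adjusted p 0.00150). In the V1 sector, ATP6V1F and ATP6V1G1 rose, ATP6V1A and ATP6V1C1 fell, and the other 4 did not pass. ATP6V1F, a subunit of the stalk, was at 103, 89.1 and 98.4 CPM with DMSO and 169.7, 135.5 and 167 CPM with A366 (0.68 ± 0.12, adjusted p 0.00112). ATP6V1A, the subunit that hydrolyses ATP, fell by 0.25 ± 0.06, and ATP6V1C1, which links stator and motor, by 0.35 ± 0.07. Of the 2 accessory subunits, ATP6AP1 rose by 0.31 ± 0.08 and ATP6AP2 did not pass. Over all 15 pump genes, 7 rose and 2 fell, with a median of 0.12, and over the 31 lysosome genes 20 rose and 2 fell, with a median of 0.30.

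**Figure D4:**
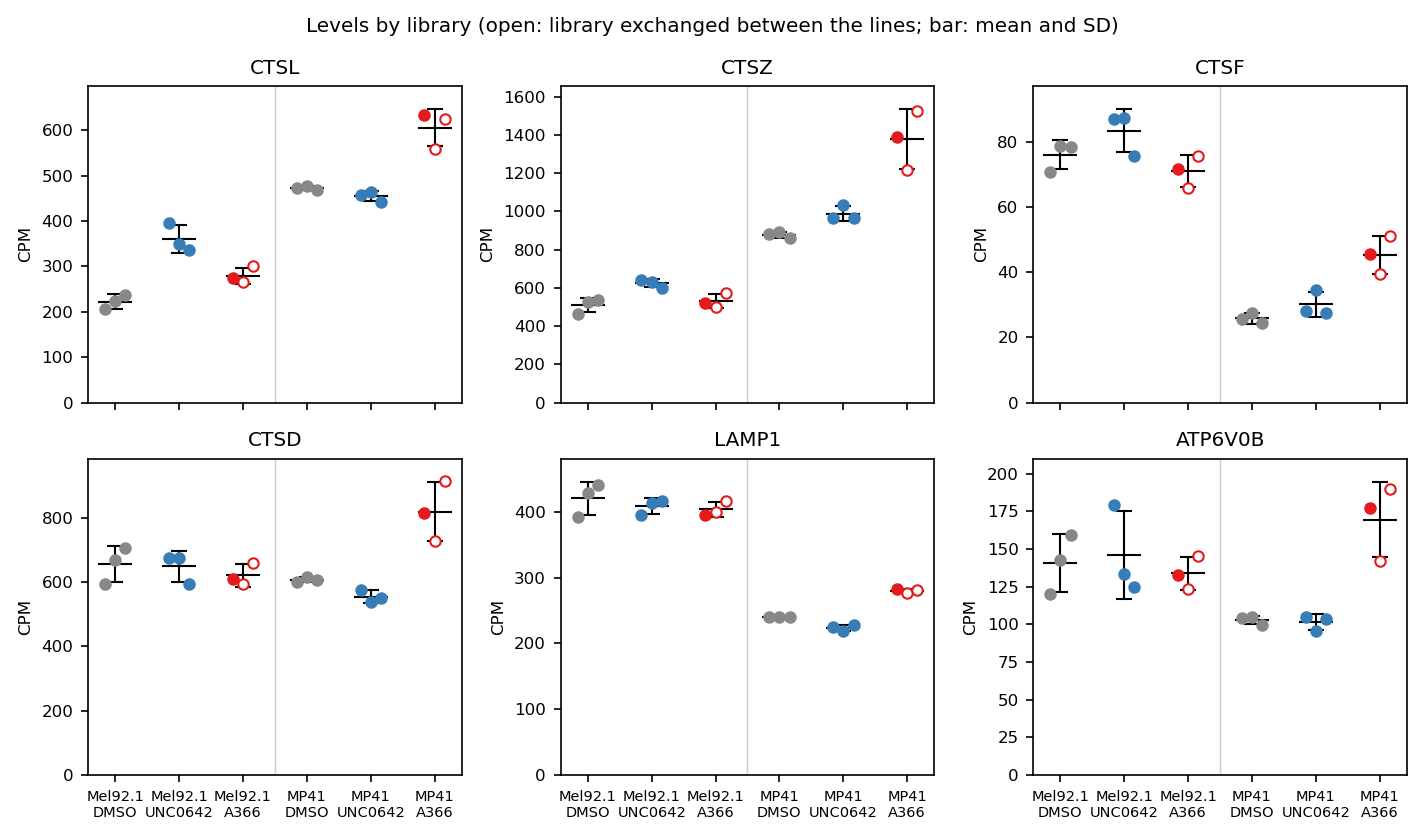
CPM of CTSL, CTSZ, CTSF, CTSD, LAMP1 and ATP6V0B in each library (points) of the 6 placed groups, with the mean and SD of 3 libraries as bars. In MP41 all A366 points lie above the DMSO points for all 6 genes, whereas in Mel92.1 only CTSL has all A366 points above DMSO.

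Transcript length and GC content moved with the response to A366 in MP41. Over 14473 genes, the log2 change had a Spearman rho of -0.473 with the length of the longest transcript and 0.459 with its GC content, across genes that share the same libraries. In Mel92.1 the same values for A366 were 0.018 and -0.232. Over 10 groups of genes by length, the median change in MP41 went from 0.38 in the shortest to -0.39 in the longest. The 27 members that rose had a median length of 2432 bases and a median GC content of 54.7%, and the 4 that fell 5101.5 bases and 41.4%. Over all genes the medians were 3568 bases and 48.5%.

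With the correction for GC and length, 21 of the 46 passed, against 35.6% of all genes, with 17 higher and 4 lower. Of the 27 that rose, 14 still passed in that direction, among them CTSF (0.39), ATP6V0B (0.40), GAA (0.38), NEU1 (0.47), ATP6V0D1 (0.24) and LAMP1 (0.21). HEXA and MANBA, whose longest annotated transcripts have 6909 and 7444 bases, had the corrected values 0.56 and 0.50. Which of their transcripts these cells used was not tested. CTSD, CTSH, GLA, GUSB and ATP6V1G1 had values between -0.097 and -0.0061, and ATP6V0C, the main proteolipid, passed in the other direction (-0.33). The pump genes ATP6V1E1 (-0.24) and ATP6V0A1 (-0.18) were called lower only with the correction. MANBA, ASAH1 (0.36) and the pump gene ATP6V1B2 (0.50) were called higher only with it. Of the 4 that fell, PPT1 alone still passed (-0.18), and SCARB2, ATP6V1A and ATP6V1C1 lay between -0.069 and -0.039. The median over the 46 was 0.05 with the correction, against -0.04 over all genes.

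**Figure D5:**
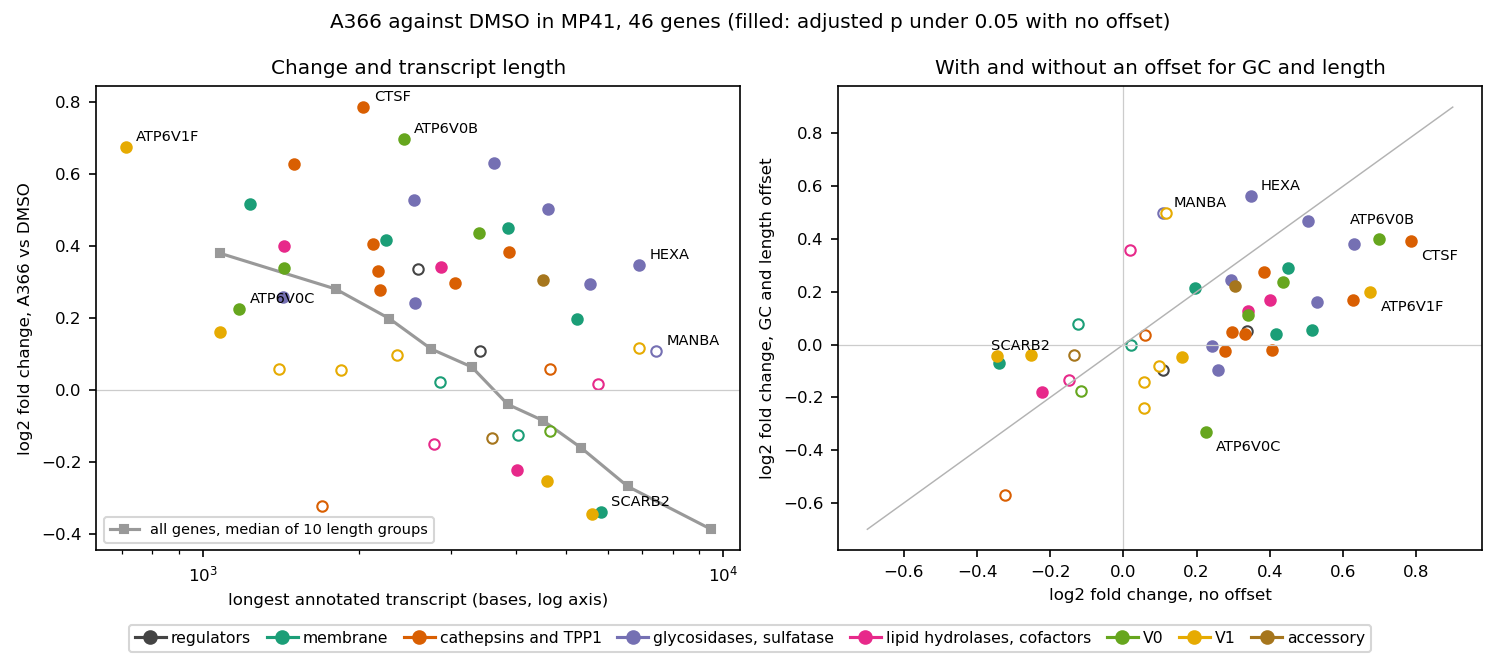
Left, the log2 change with A366 in MP41 of each of the 46 genes (points, colored by kind of protein) against the length of its longest transcript in bases on a log axis, with the medians of all genes in 10 groups by length as gray squares, which fall from 0.38 to -0.39. Right, the same change without (horizontal) and with (vertical) the correction for GC and length, where most points that rose lie under the line of equality and ATP6V0C changes sign.

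The 7 genes whose promoter sequences with the CLEAR core are printed above all rose with A366 in MP41, with a median of 0.42. Of the 25 members whose window lacked it, 14 rose and 2 fell, with a median of 0.26. Over all genes tested with a RefSeq promoter, 28.6% of 224 with the core rose and 22.6% of 10655 without it, and their medians were -0.01 and 0.00. With the correction for GC and length, 4 of the 7 and 6 of the 25 were called higher, where 13.7% of all genes tested were. That share is not split by the core or limited to genes with a promoter, so it is not a like background.

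Other features of the MP41 libraries moved with A366. The 6 melanocytic markers summed to 9220 to 10470 CPM with A366 and 7796 to 7841 CPM with DMSO. PMEL, the largest part of the sum, was at 5433 to 6681 CPM with A366 and 4402 to 4532 CPM with DMSO. MLANA, TYR and SOX10 were also higher without overlap, and PAX3 overlapped. DCT went the other way, at 221.6 to 313.0 CPM with A366 and 327.4 to 330.3 CPM with DMSO. The 3 endothelial markers summed to 2.37 to 3.14 CPM with A366 and 0.369 to 0.584 CPM with DMSO, and the 4 epithelial markers to 0.0805 to 0.190 CPM with A366 and 0.608 to 2.25 CPM with DMSO. The 4 blood markers (0.664 to 0.797 CPM) lay within the DMSO range, and the 3 fibroblast markers were at 7.49 to 8.27 CPM against 10.2 to 10.8 CPM. Genes of ribosomal RNA took 5.93% to 10.96% of counts with A366 and 3.31% to 5.10% with DMSO. Their part in the result was not tested.

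The placement of the libraries bears on these counts. By the labels, 20 of the 46 passed in MP41 with A366, against 32.8% of all genes, with 17 higher and 3 lower. Of the 27 that rose with the libraries placed, 14 passed by the labels. TFEB passed as well (1.57, adjusted p 0.0206), and it was higher in Mel92.1 than in MP41 with DMSO. The changes by the labels were -0.10 for CTSZ, -0.24 for CTSL, 0.19 for CTSD and 1.29 for CTSF. Without the 4 exchanged libraries, which leaves 1 A366 library in MP41, assumed to vary like the other groups, 29 passed, against 35.7% of all genes. These were 25 of the 27 that rose and the 4 that fell.

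The 2 inhibitors were compared directly at the same dose and time, as 1 pair of compounds in each line, with adjustment over all genes. In MP41, 27 of the 46 genes were higher with A366 than with UNC0642 and 4 were lower, where 43.1% of all genes passed, 21.1% higher and 22% lower. ATP6V0B differed most, by 0.72 (95% interval 0.52 to 0.92), then ATP6V1F by 0.70 (0.45 to 0.96) and CTSF by 0.57 (0.33 to 0.80). The 4 lower genes were SCARB2 (-0.31), ATP6V1C1 (-0.27), ATP6V1A (-0.27) and PPT1 (-0.16). Among the 15 that did not pass, ASAH1 differed by 0.08 (-0.04 to 0.20) and TFEB by 0.38 (-0.11 to 0.87). With the correction for GC and length 23 passed, against 35.6% of all genes, with 20 higher and 3 lower. Over all genes, the uncorrected difference had a Spearman rho of -0.448 with length and 0.421 with GC content. By the labels 20 passed, against 31% of all genes, and without the 4 exchanged libraries 28, against 34.4%.

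In Mel92.1 the compounds differed in 1 of the 46, where 0.165% of all genes passed. ASAH1 was at 867, 856 and 888 CPM with UNC0642 and lower with A366 in every library (-0.32 ± 0.05, 95% interval -0.43 to -0.21, adjusted p 0.0418). This call was lost by the labels, without the 4 exchanged libraries, and on leaving out any library of the line except DMSO replicate 1, with adjusted p from 0.0623 to 0.295. CTSL was lower with A366 by a difference of -0.36 (-0.55 to -0.17), which did not pass (adjusted p 0.219). For 43 of the 46, the 95% interval of the difference lay within 1.5-fold either way, CTSK being the widest at -1.41 on its lower side.

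The response itself was then compared between lines, as the Mel92.1 change less the MP41 change. For UNC0642, 1 of the 46 differed, CTSL (0.75 ± 0.10, adjusted p 8.62e-04), where 0.601% of all genes did. CTSL was still called on leaving out any of the 18 libraries and with the correction for GC and length (0.96, where the median over all genes was 0.14), but not by the labels. For A366, 19 of the 46 differed and all 19 were lower in Mel92.1, where 13.8% of all genes differed and 8.67% were lower. CTSF differed most (-0.91 ± 0.15, adjusted p 0.00157), then ATP6V0B (-0.80 ± 0.18) and ATP6V1F (-0.70 ± 0.22). The 19 held 5 cathepsins (CTSA, CTSB, CTSD, CTSF and CTSZ), 5 enzymes of glycan breakdown (GAA, HEXA, NAGLU, NEU1 and SGSH) and 5 pump genes (ATP6AP1, ATP6V0B, ATP6V0C, ATP6V0D1 and ATP6V1F). The remaining 4 were ASAH1, PSAP, CD63 and LAMP1.

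The count of 19 depended on single libraries. It was 8 without Mel92.1 DMSO replicate 2, DMSO replicate 3, A366 replicate 1 or A366 replicate 2, or without MP41 A366 replicate 1 or replicate 3, where 3.86% to 5.16% of all genes differed. It was 12 without MP41 DMSO replicate 1, against 7.01%. With the correction for GC and length it was 1, against 1.3% of all genes. Without the 4 exchanged libraries it was 3, against 1.24% of all genes, and by the labels it was 26, against 49.4%, with 9 higher and 17 lower. The median difference over the 46 was -0.27 with the libraries placed and -0.27 without the 4, and over all genes it was -0.03 in both.

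Outside the 46, 76 further genes of the pathway were examined: tissue-restricted pump subunits, other hydrolases, other membrane proteins, sorting factors and the mTORC1 machinery at the lysosome. In Mel92.1, UNC0642 raised 1 of the 73 tested, GM2A, the activator of ganglioside breakdown, from 91.1, 96.0 and 102 CPM with DMSO to 155, 145 and 143 CPM (0.61 ± 0.07, adjusted p 0.00220). Its response differed from that in MP41 by 0.53 ± 0.09 (adjusted p 0.00915). UNC0642 in MP41 and A366 in Mel92.1 moved none of these genes past the edgeR test. Before adjustment, 7 and 3 had a p under 0.05, given without the share of all genes.

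With A366 in MP41, 28 of 74 further genes rose and 13 fell, with a median of 0.16, where 22.5% of all genes rose and 23.5% fell. By the labels 17 of 73 rose and 9 fell, where 19.4% of all genes rose and 13.4% fell. Of the 25 further hydrolases 11 rose and none fell, and of the 6 sorting factors 2 rose and 3 fell. Of the 12 further pump genes tested, 4 rose and 4 fell. These counts are without the correction for GC and length. Over all genes, the change had a Spearman rho of -0.473 with length and 0.459 with GC content. The largest called rise was that of TFEC, a relative of TFEB, from 0.0649, 0.209 and 0.109 CPM to 0.381, 0.724 and 0.474 CPM, a level near the limit of detection (2.01 ± 0.76, adjusted p 0.0478). FNIP2, a partner of folliculin in mTORC1 signaling, fell most, from 70.2, 69.2 and 74.6 CPM to 34.0, 53.5 and 24.4 CPM (-0.96 ± 0.20, adjusted p 0.00266). With DMSO, ATP6V0A4, a V0 subunit known from kidney and inner ear, was at 92.0, 81.7 and 90.9 CPM in MP41 and 4.11, 3.80 and 3.09 CPM in Mel92.1 (-4.58 ± 0.18).

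Against UNC0642, A366 in MP41 raised 25 and lowered 15 of these 74 genes, from LAMTOR4 (0.67 ± 0.13), a part of the Ragulator scaffold of mTORC1, to FNIP2 (-0.87 ± 0.20), where 21.1% of all genes were higher and 22% lower. In the DMSO comparison of the lines, 24 were higher and 28 lower in Mel92.1, near the 34.5% and 34.8% of all genes, and LAMTOR2, another part of Ragulator, had the largest called rise (1.38 ± 0.13). The response to A366 differed between the lines in 16 of these genes, against 13.8% of all genes. Of the 16, 15 were lower in Mel92.1. The extremes were LAMTOR4 (-0.85 ± 0.20) and DMXL1 (0.89 ± 0.27), a factor of V-ATPase assembly. These counts with A366 are without the correction for GC and length. With it, 35.6% of all genes passed for A366 against UNC0642 in MP41, and 1.3% differed between the lines for A366.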

How the data were processed

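RNA was sequenced from 18 libraries of Mel92.1 and MP41. The authors deposited RSEM expected counts per gene symbol, not normalized (Bowtie2 2.1.0, RSEM 1.2.15 and hg38 per the labels). The gene annotation and counting strand are not given in the sources used here. The labels describe oligo-dT selection and strand-marked libraries, the series text ribosomal depletion, and the study's methods another aligner, a mouse build and FPKM, which the deposited counts are not.

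Counts were rounded (5.85% to 13.4% of values were not whole), filtered with filterByExpr, TMM-scaled and tested with edgeR 4.0.16 (glmQLFit, glmQLFTest; R 4.3.3), two-sided, with Benjamini-Hochberg adjustment over all genes. Each line was fitted with its 9 libraries, and line differences with all 18. DESeq2 1.42.0, limma 3.58.1 and other settings were alternatives. GC content and length came from the longest GENCODE v29 transcript, fitted by splines for the offset. The fits were also run on simulated data, whose outcome is not given or used here. Intervals are 95%. Genes overlapping others, such as LIPA, PPT1 and SGSH on the opposite strand and MCOLN1 on the same, may share reads.

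Members and lists were chosen with earlier results of these data known. Values by library are given for TFEB, TFE3, LAMP1, CTSD and ATP6V0D1, for the 3 called members with the largest change against DMSO in each comparison (or, with fewer called, the smallest p), and for the 2 largest line differences. Further members illustrate their kind of protein and were picked after their values were seen.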

Additional observations from a re-analysis of the deposited data

Results flagged for a closer look

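The responses of 20 genes differed between the lines by the test of the difference itself (edgeR, adjusted p under 0.05), given as the Mel92.1 log2 change less the MP41 change. For UNC0642 this was CTSL, at 0.75. For A366, the proteases differed by -0.91 (CTSF), -0.59 (CTSZ), -0.51 (CTSD), -0.48 (CTSA) and -0.36 (CTSB). The enzymes of glycan breakdown differed by -0.65 (GAA), -0.59 (NAGLU), -0.55 (NEU1), -0.39 (HEXA) and -0.34 (SGSH). The pump genes differed by -0.80 (ATP6V0B), -0.70 (ATP6V1F), -0.57 (ATP6V0D1), -0.44 (ATP6AP1, 95% interval -0.68 to -0.21) and -0.40 (ATP6V0C). The remaining differences were -0.60 (CD63), -0.39 (PSAP), -0.28 (LAMP1) and -0.23 (ASAH1). With the correction for GC and length, 1 of the 46 genes was called for A366. Groups of 3 are too small for a test of single outlying libraries.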

How the results depend on the processing

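Counts of the 46 genes called are given in order of comparison, and the cause of a change was not tested. For UNC0642 in Mel92.1 (1 called) the count was 0 by the labels and with the GC and length offset, with or without the replicate block, and 3 with DESeq2 and with limma voom. For A366 in Mel92.1 (0 called) it was 2 with DESeq2 and 14 with limma voom. For A366 against UNC0642 in Mel92.1 (1 called) it was 0 by the labels, without the 4 exchanged libraries, with no filter on low counts, with the replicate block and with the offset, with or without the block, 3 with DESeq2 and with limma voom, and 0 to 1 on leaving out a library. For A366 in MP41 and for A366 against UNC0642 there (31 called each), it was 20 by the labels. For the line difference with UNC0642 (1 called) it was 0 by the labels and 3 with DESeq2. For that with A366 (19 called) it was 3 without the 4 exchanged libraries, 1 with the offset, 0 with the offset and block, 39 with limma voom, where 58.7% of all genes were called, and 8 to 25 on leaving out a library, where 3.86% to 24.1% of all genes were. On leaving out a library, A366 in MP41 had 27 to 34 calls and the DMSO line difference 33 to 37. With no library left out, 46% and 69.4% of all genes passed in these comparisons.

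Among the 31 genes called for A366 in MP41, the values that changed sign were, by the labels, MCOLN1 -0.040, CTSA -0.27, CTSL -0.24, CTSZ -0.10, GUSB -0.61 and ATP6V1A 0.20. With the offset they were CTSD -0.0194, CTSH -0.0248, GLA -0.097, GUSB -0.0061, ATP6V0C -0.33 and ATP6V1G1 -0.0477, and with the offset and replicate block CTSD -0.0193, CTSH -0.0229, GLA -0.097, GUSB -0.006, ATP6V0C -0.33 and ATP6V1G1 -0.0476. No common pairing by replicate number was seen: deviations of same-numbered libraries correlated by -0.48 to 0.59 in Mel92.1 (1 of 9 pairs over 0.1) and -0.20 to 0.23 in MP41 (2 of 9). With 3 libraries a group this check is weak. Between DMSO and UNC0642 in MP41, same-numbered pairs had 0.049, 0.233 and 0.131 and the others -0.184 to 0.087, so pairing is not excluded there. With the replicate block alone, A366 in MP41 had 30 calls and the line difference with A366 15. Of the refits of single named genes, 622 kept the direction and the call, 71 kept the direction only and 18 changed sign. The 3 libraries a group limit all tests, and at the level of TFEB, 72 to 419 counts in Mel92.1, changes had standard errors near 0.23.

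Over all genes, the count called moved by over 1.5 times as follows. For UNC0642 in Mel92.1 (100) it was 0 by the labels, 40 without the 4 libraries, 384 with DESeq2, 46 with the block, 51 with the offset, 16 with both and 413 with limma voom. For A366 in Mel92.1 (31) it was 0, 0, 171, 10, 18, 10 and 3087 in that order, and for A366 against UNC0642 there (24) it was 0, 0, 213, 6, 7, 1 and 214. For UNC0642 in MP41 (36) it was 0, 116, 180, 9, 133, 74 and 154, and 61 with no filter. For the line difference with UNC0642 (95) it was 0 by the labels, 56 without the 4 libraries, 315 with DESeq2, 59 with the block, 43 with block and offset and 243 with limma voom. For that with A366 (2179) it was 7801, 208, 3489, 1176, 206, 103 and 9276 in the first order.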
